A study of Mus musculus with 2 samples.

Results

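Sertoli cells recognise dying germ cells through surface receptors that bind phosphatidylserine, either directly or through a soluble bridge, and 10 such genes were followed in the Ago2 IP counts. They were chosen by symbol from the 22609 gene rows: the TAM receptors Tyro3, Axl and Mertk, the TAM ligands Gas6 and Pros1, the bridge Mfge8, the integrin chains Itgav and Itgb5, the scavenger receptor Scarb1 and the adaptor Gulp1. All 10 had a row in both tables, and all 10 passed the minimum of 20 reads over both libraries. The data came from TM4, an established mouse Sertoli cell line grown in DMEM with serum, transfected with a miR-471-5p mimic or with scramble, a control RNA, and lysed after 48 h for immunoprecipitation with an Ago2 antibody. Ago2 is the protein that holds a miRNA on its mRNA targets. The study sought putative targets by comparing the Ago2 fraction of mimic and scramble cells. It reported on mRNAs whose Ago2 association rose with the mimic. Each condition had 1 library, so no difference below has a replicate check, no test of the condition was possible, and every interval covers counting error only.

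An apoptotic cell turns phosphatidylserine to its outer surface. Gas6 and Pros1 bind that lipid through an amino-terminal domain rich in carboxylated glutamate and engage the TAM receptor tyrosine kinases with the other end, while Mfge8 links the lipid to the αv integrins through an RGD motif. Scarb1 binds phosphatidylserine itself as well as lipoproteins, and it has been described as a phagocytic receptor of Sertoli cells. Gulp1 is a cytoplasmic adaptor that docks on the tails of engulfment receptors such as Lrp1. All TAM receptors are known in Sertoli cells, where Gas6 and Pros1 are also made.

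Reads on genes came to 18628310 for the mimic and 18717225 for scramble. The floor of detection used here, 3 reads, equals 0.161 CPM (counts scaled to the TMM-adjusted library total) with either. The identity of the cells was read from marker lists. Of the Sertoli markers, 19 of 20 had a row and 8 had at least 20 reads. Kitl had 12245 mimic and 16163 scramble reads, Sox9 had 1228 and 1070, and Gata4 had 341 and 365. Vim, an intermediate filament gene of many mesenchymal cells too, had 121464 and 83153. The factor Wt1 had 73 and 35, a log2 ratio of mimic to scramble of 1.06 (0.46 to 1.68). In contrast, Fshr, Gata1 and Krt18 were at 0 in both libraries. Macrophage markers, which matter because professional phagocytes carry the same receptors, summed to 2.20 mimic and 2.30 scramble CPM over 11 genes, with Ptprc, Itgam, Emr1 and C1qa at 0 in both. Germ cell markers summed to 9.42 and 10.1 CPM over 10 genes, and Leydig cell markers to 4.50 and 4.71 over 6. At least 20 reads were found for 4 germ cell markers, Sycp3 with 58 mimic and 48 scramble reads among them. Of the Leydig cell markers only Star reached that minimum, with 60 and 69. Of 5 peritubular myoid markers, the actins Acta2 and Actg2 were well read, with 73076 mimic and 101778 scramble reads for Acta2 and 747 and 988 for Actg2. Cnn1 had 11 and 17, Myh11 had 6 and 6 and Des had 7 and 7. The part of this smooth muscle actin signal in the results was not tested.

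The mimic pairs through its seed, bases 2 to 8 of the mature strand, shown in capitals because the search in the members rests on it. The RefSeq entry (GRCm38.p6) places this strand on the minus strand at chrX:66792634-66792655.
mmu-miR-471-5p: uACGUAGUauagugcuuuucac
The pairing mRNA letters are ACTACGT (7mer-m8), which contain the shorter CTACGT (6mer); only the sense strand of each mRNA was searched. Annotated 3′-UTRs (GENCODE M21, longest per gene) held a 6mer in 8.32% and a 7mer-m8 in 1.89% of the 11759 tested genes with one, and coding regions held them in 16.3% and 4.34% of 11774. The longest 3′-UTR of each of the 10 members held neither. In coding regions, 2 of the 10 members held a match, shown here with the matching letters in capitals.
Itgb5 coding region: ccaggcgagcagACTACGTtccagctgca
Mfge8 coding region: cttcatggctcgCTACGTgcgtgtcctt
The Itgb5 match was a 7mer-m8 at base 370 of a coding region of 2451 bases, in exon 4 of 15, at chr16:33875810-33875816 on the plus strand of GRCm38. The Mfge8 match was a 6mer at base 1323 of 1392, in exon 10 of 10, at chr7:79134473-79134478 on the minus strand, and in 1 shorter Mfge8 transcript the same bases were annotated as 3′-UTR. In 8 of the 10 members no annotated coding transcript held either form. A match is a stretch of letters and not a shown site, and its absence from these windows says nothing of other kinds of pairing.

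None of the 10 genes differed by 2-fold between the libraries. Over all 12186 genes with at least 20 reads, 3.96% were higher and 3.08% lower by 2-fold or more, 7.04% in all. Even a 1.5-fold limit, passed by 11.7% of all genes upwards and 9.11% downwards, was met by none of the members, of which Gas6 came closest at 0.670 times its scramble level. RNA taken before the pull-down was not analysed here, so fewer cells with an mRNA, less of it per cell and less of it on Ago2 cannot be told apart in these bulk libraries. Smaller differences did exceed counting error. In 7 members (Gas6, Pros1, Scarb1, Itgav, Gulp1, Tyro3 and Mfge8) the 95% interval of the log2 ratio of mimic to scramble lay below 0, and in 1 (Axl) it lay above. The same rule put 32.5% of all tested genes below 0 and 31.5% above. The interval narrows with depth, and among the 6816 genes with at least as many reads as Tyro3, a set that holds 9 of the members, the shares were 41.7% and 35.3%. By sign alone, 3 members had a ratio above 0 and 7 below, against 49.9% and 50.1% of all tested genes. The median log2 ratio was -0.19 over the members and -0.00063 over all tested genes.

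**Figure D1:**
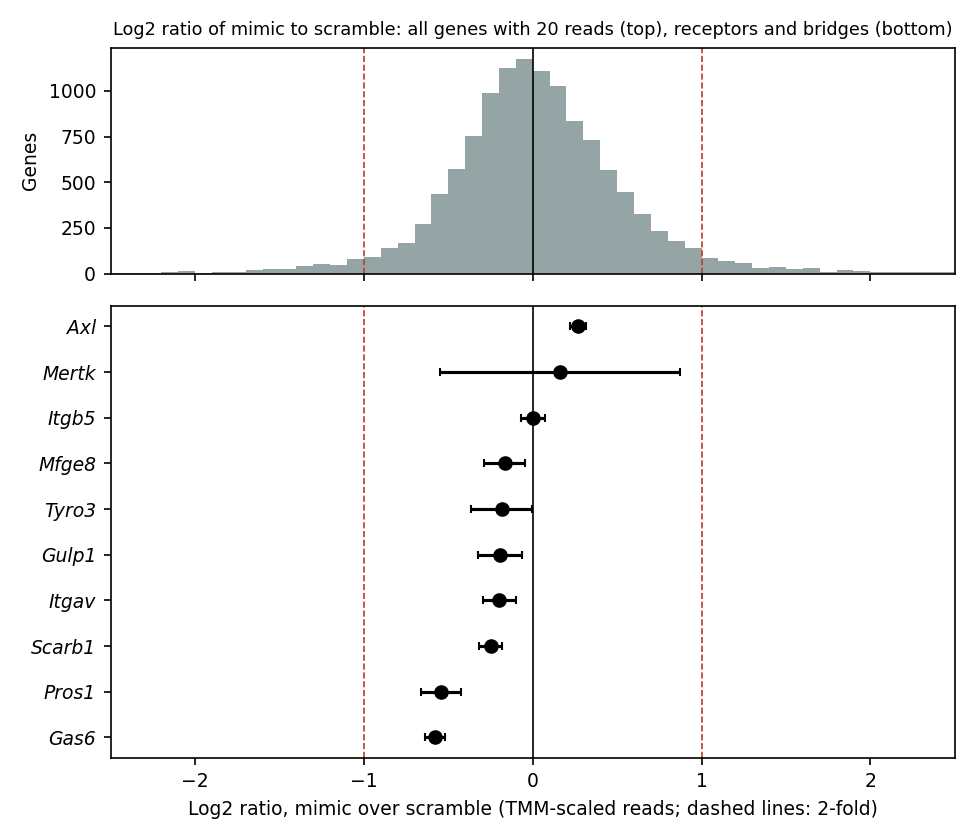
Log2 ratio of mimic to scramble (x axis) as a histogram of all 12186 genes with at least 20 reads over both libraries (top, number of genes per bin, shown from -2.5 to 2.5) and for the 10 receptors and bridges (bottom), with bars for the 95% counting interval and dashed lines at 2-fold. Gas6 and Pros1 lie lowest, at -0.58 and -0.54, Axl lies highest at 0.27, and no gene reaches a dashed line.

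The receptor tyrosine kinases came first, and among them Axl dominated the Ago2 fraction. Axl (ENSMUSG00000002602.16, chr7:25757273-25788705, GRCm38) had 7547 mimic and 6260 scramble reads. Levels are given in RPKM, reads per kilobase of annotated exon scaled to the TMM-adjusted library total. That of Axl was 80.3 (95% Poisson interval 78.5 to 82.1) with the mimic and 66.6 (65.0 to 68.3) with scramble. Axl was therefore the TAM receptor with more reads in the mimic library beyond counting error, with a log2 ratio of 0.27 (0.22 to 0.32).

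Tyro3 (ENSMUSG00000027298.17, chr2:119797733-119818104), the TAM receptor best known from the nervous system, had 472 mimic and 536 scramble reads. In RPKM its level was 4.08 and 4.63. The log2 ratio of Tyro3 was -0.18 (-0.37 to -0.0029), an interval that only just stayed below 0, and it spanned 0 when libraries were scaled by total reads or by the upper quartile. Mertk (ENSMUSG00000014361.5, chr2:128698956-128802894), the TAM receptor of macrophages and of the retinal pigment epithelium, had only 38 and 34 reads. Its level of 0.469 RPKM (0.332 to 0.644) with the mimic and 0.420 (0.291 to 0.587) with scramble was the lowest of the group, with counts above the floor of 3 reads. Some markers of germ and Leydig cells, Sycp3 and Star among them, had more reads than Mertk, though most had fewer. For Mertk the log2 ratio of 0.16 had an interval from -0.55 to 0.87, so a difference was not detectable at this depth.

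Within a library the balance of receptors does not depend on how the libraries are scaled. Per kilobase, Axl made up 94.6% of the summed TAM receptor level with the mimic and 93.0% with scramble. Tyro3 made up 4.81% and 6.46%, and Mertk 0.553% and 0.586%. The ratio of Axl to Tyro3 per kilobase was 19.7 (17.9 to 21.7) with the mimic and 14.4 (13.2 to 15.7) with scramble, and these intervals did not overlap. On the log2 scale the ratio of Axl to Tyro3 was higher in the mimic library by 0.45 (conditional exact interval 0.27 to 0.64). For Axl against Mertk the same difference was 0.11, with an interval from -0.60 to 0.82 that the few Mertk reads leave wide.

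The ligands showed the largest differences of the group, and both were lower in the mimic library. Gas6 (ENSMUSG00000031451.6, chr8:13465374-13494490), the ligand that activates all TAM receptors, had 3784 mimic and 5647 scramble reads. Its level was 79.5 RPKM (77.0 to 82.1) and 119 RPKM (116 to 122), which did not overlap. In log2 terms Gas6 was at -0.58 (-0.64 to -0.52), at percentile 9.28 of all tested genes.

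Pros1 (ENSMUSG00000022912.8, chr16:62854307-62929346), protein S, an anticoagulant cofactor as well as a ligand of Tyro3 and Mertk, had 993 mimic and 1445 scramble reads. The level of Pros1 was 13.0 RPKM (12.2 to 13.8) with the mimic and 18.9 RPKM (17.97 to 19.94) with scramble. Its log2 ratio of -0.54 (-0.66 to -0.42) lay at percentile 10.5, and its interval overlapped that of Gas6. The ratio of Gas6 to Pros1 per kilobase was 6.11 (5.70 to 6.56) with the mimic and 6.27 (5.92 to 6.65) with scramble. It differed between the libraries by -0.036 on the log2 scale (-0.17 to 0.096). Without regard to length, a shift in the balance of the ligands beyond that range was not seen, and a smaller one was not detectable. Relative to the median of genes of the same length the ligands stood further apart, with Gas6 at -0.79 and Pros1 at -0.54.

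The most read ligand was lower and the most read receptor higher in the mimic library. With lengths over all annotated exons, their levels could not be told apart there. Per kilobase Gas6 stood at 1.78 (1.72 to 1.85) times Axl in the scramble library and at 0.990 (0.952 to 1.03) times Axl in the mimic library. The log2 difference of this ratio was -0.85 (-0.92 to -0.77). Pros1 to Tyro3 differed less, by -0.36 (-0.57 to -0.14), from 4.09 in the scramble library to 3.19 in the mimic library. Length mattered to the levels of Gas6 and Axl. With the longest transcript Axl stood above Gas6 in the mimic library, at 94.7 against 79.5 RPKM. In the scramble library Axl stood below Gas6, at 78.6 against 119 RPKM. These pairs were chosen with the counts of their members known, and the values describe the libraries.

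**Figure D2:**
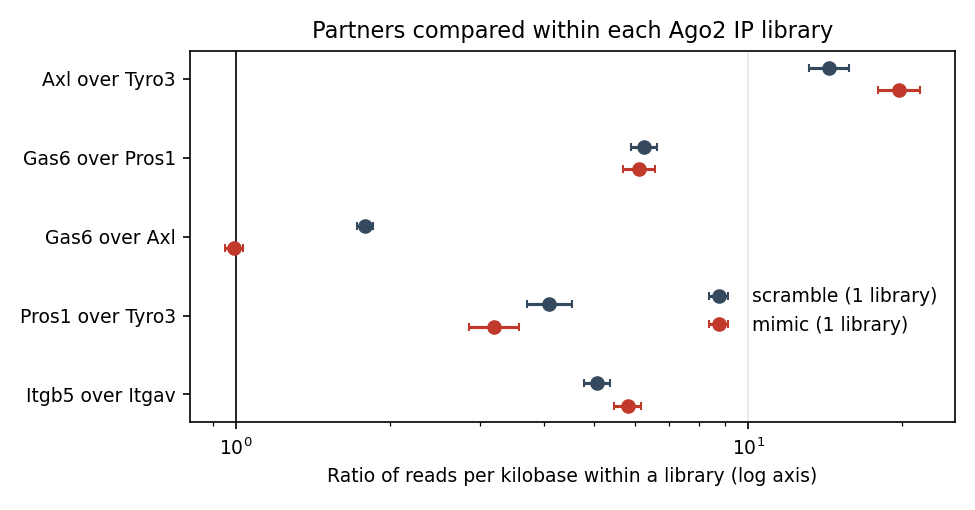
Ratio of reads per kilobase of the first gene to the second (x axis, log scale), with lengths over all annotated exons. Points are the mimic and the scramble library, with bars for the exact 95% counting interval. Gas6 over Axl moves from 1.78 in the scramble library to 0.990 in the mimic library, whereas the intervals of Gas6 over Pros1 overlap.

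Mfge8 (ENSMUSG00000030605.15, chr7:79133768-79149060), the milk fat globule protein that bridges phosphatidylserine to αv integrins, had 1072 mimic and 1202 scramble reads. Its level was 12.2 RPKM (11.5 to 13.0) and 13.7 RPKM (13.0 to 14.5). The log2 ratio of -0.17 (-0.29 to -0.046) was smaller than that of either TAM ligand, with intervals that did not overlap theirs. Mfge8, whose coding region holds the 6mer, was read slightly less with the mimic, as were members with no match, such as Scarb1. The part of the match was not tested.

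The integrin chains of the receptor αvβ5 differed in ratio. Itgav (ENSMUSG00000027087.11, chr2:83724397-83806916), the α chain shared by several integrins, had 1656 mimic and 1898 scramble reads, 8.25 and 9.46 RPKM. Its log2 ratio was -0.20 (-0.29 to -0.10). Itgb5 (ENSMUSG00000022817.15, chr16:33829665-33949338), the β chain that makes αvβ5 with it, had 3184 and 3182 reads, 48.0 RPKM in each library. Itgb5, whose coding region holds the 7mer-m8, had a log2 ratio of 0.00028 (-0.071 to 0.072), so a difference beyond that interval was not seen. Per kilobase Itgb5 exceeded Itgav 5.81-fold (5.48 to 6.17) with the mimic and 5.07-fold (4.79 to 5.37) with scramble, a log2 difference of 0.20 (0.078 to 0.32). With the longest transcript Itgb5 stood at 51.9 RPKM in each library and Itgav at 12.6 with the mimic and 14.4 with scramble. Relative to the median of genes of the same length the order of log2 ratios turned round, with Itgav at 0.034 and Itgb5 at -0.058. Itgb3, the β chain of the related αvβ3 and named here after its values were seen, had 1213 mimic and 923 scramble reads and a log2 ratio of 0.39 (0.27 to 0.52). The more read β chain Itgb1, described with the other integrins below, was lower in the mimic library, at -0.76 (-0.79 to -0.73).

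Scarb1 (ENSMUSG00000037936.15, chr5:125277087-125341094), a receptor for high density lipoprotein and for phosphatidylserine, had 3222 mimic and 3828 scramble reads. Its level was 20.3 RPKM (19.60 to 21.01) and 24.1 RPKM (23.4 to 24.9), and the log2 ratio was -0.25 (-0.32 to -0.18). Among the members only the TAM ligands had a lower ratio than Scarb1.

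Gulp1 (ENSMUSG00000056870.9, chr1:44551511-44796838), the engulfment adaptor with a phosphotyrosine binding domain, had 912 mimic and 1043 scramble reads. In RPKM the level of Gulp1 was 13.0 and 14.9, and its log2 ratio was -0.19 (-0.32 to -0.065).

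In the scramble library the order of RPKM levels ran from Gas6 through Axl, Itgb5, Scarb1, Pros1, Gulp1, Mfge8, Itgav and Tyro3 to Mertk. Gulp1 and Mfge8 were the only neighbours in it whose counting intervals overlapped. In the mimic library Axl stood before Gas6 with overlapping intervals, the rest kept the order, and Pros1, Gulp1 and Mfge8 followed each other with overlapping intervals. Gas6, Axl and Itgb5 lay at percentiles 98.0, 95.1 and 91.7 of all tested genes in the scramble library, and Mertk at percentile 7.74. Annotated length enters these levels. With the longest transcript in place of all annotated exons, Scarb1 stood above Itgb5 (66.3 against 51.9 RPKM in the scramble library), and Mfge8 passed both Gulp1 and Pros1 (27.6 against 17.8 and 23.4 RPKM).

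**Figure D3:**
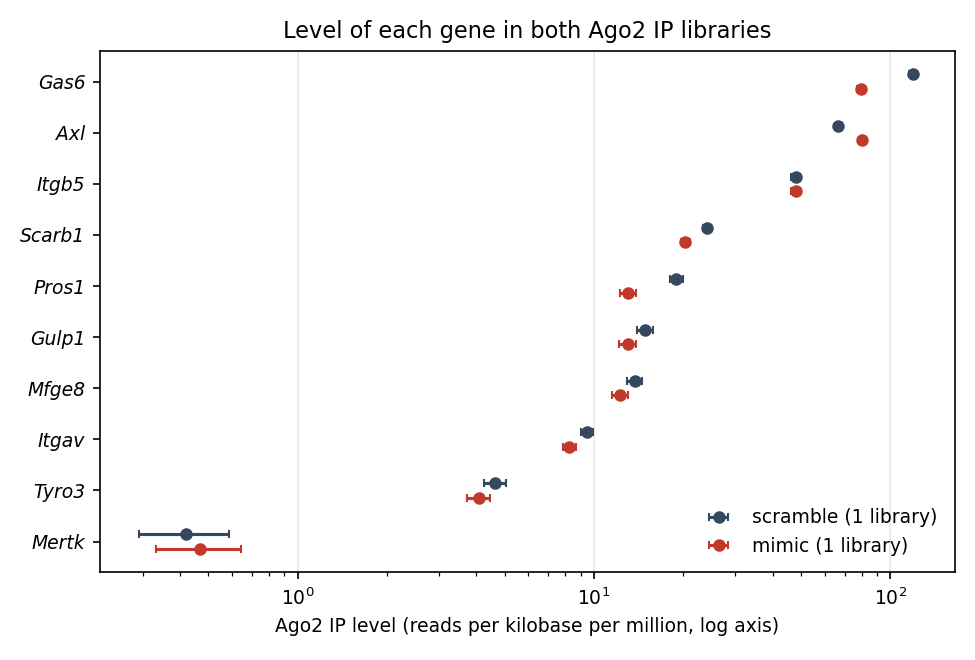
Level of the 10 genes in RPKM (x axis, log scale) in the scramble and the mimic library, sorted by the scramble level. RPKM are reads per kilobase of annotated exon scaled to the TMM-adjusted library total, and bars are the 95% Poisson interval. The levels span from 0.420 for Mertk to 119 for Gas6 in the scramble library, and Axl and Gas6 meet at 80.3 and 79.5 in the mimic library.

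Transcript length moved with the log2 ratio over all genes. Across the 12082 tested genes with a length (Spearman's rho -0.40, over genes, which are not replicates), the median log2 ratio went from 0.41 in the shortest length decile to -0.23 in the longest. Gas6, with 2548 exonic bases, lay in a decile whose median was 0.22, and Pros1, with 4088 bases, in one with a median of -0.00063. Relative to genes of their own length these ligands were at -0.79, which is past 1.5-fold, and -0.54, at percentiles 5.05 and 8.19 of their deciles. Axl, with 5033 bases and a median of -0.030 in its decile, stood at 0.30 above it.

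The longest members looked different by this measure. Itgav, with 10744 exonic bases, was in the decile with a median of -0.23, so that it lay 0.034 above genes of its length. Scarb1, with 8500 bases and a median of -0.17, was -0.076 from it, and Tyro3, with 6198 bases and a median of -0.086, was -0.098 from it. The part of length in the members' ratios was not tested.

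**Figure D4:**
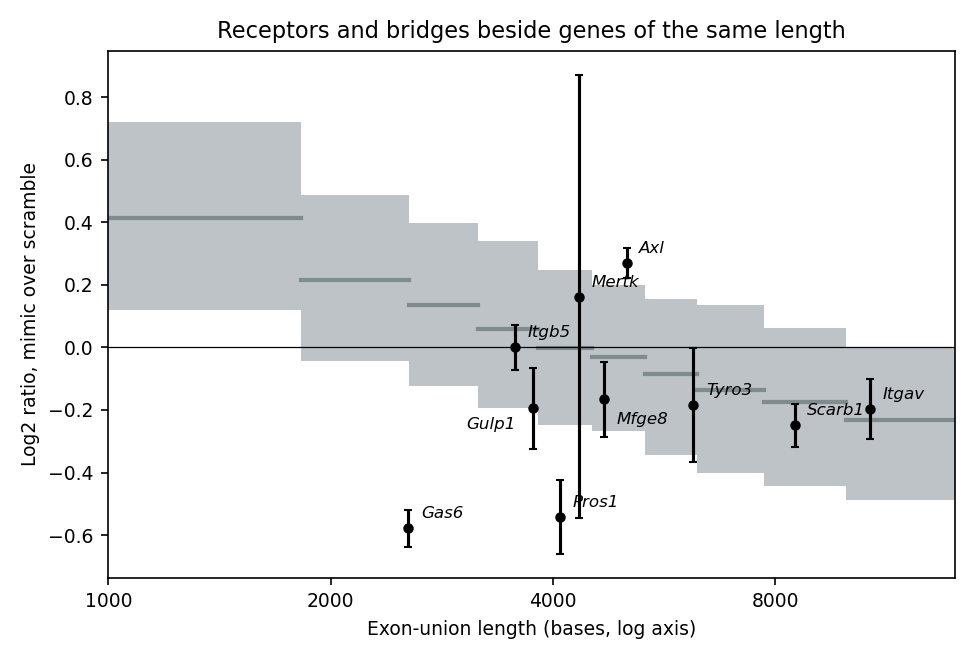
Log2 ratio of mimic to scramble (y axis) against annotated exonic length in bases (x axis, log scale, the outermost groups cut at the axis limits). Grey lines and bands are the median and the middle 50% of tested genes in each length decile, and points with 95% counting intervals are the 10 members, of which Gas6 and Pros1 fall below the bands and Axl at 0.27 above its band.

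The other genes of the pathway were read from lists. Over all tested genes 3.96% were higher and 3.08% lower by 2-fold, the background for each list here and below. Of 23 other uptake receptors, 11 had at least 20 reads, 2 of them were higher by 2-fold and 0 lower, with a median log2 ratio of 0.087. The endocytic receptor Lrp1, on whose tail Gulp1 docks, had the highest level, 13.7 mimic and 13.1 scramble RPKM, and a log2 ratio of 0.062 (0.0015 to 0.12). Colec12, a scavenger receptor with a collagen stalk, followed with 9.35 and 8.80 RPKM. Cd14, a pattern receptor that also binds apoptotic cells, had 81 mimic and 26 scramble reads. Its log2 ratio was 1.64 (0.99 to 2.34), beside a median of 0.41 in genes of its length. Megf10, an engulfment receptor of glia, had 19 and 3 reads, a log2 ratio of 2.66 with an interval from 0.90 to 5.06. Other receptors were not detected. Bai1, a phosphatidylserine receptor described in Sertoli cell phagocytosis, and Timd4, Msr1, Marco and Cd300lf, receptors known mainly from macrophages and other myeloid cells, were at 0 in both libraries, which allows up to 3 reads each.

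Among 16 other bridges and eat-me ligands, 6 had at least 20 reads and 1 was lower by 2-fold, with a median of 0.34. It was Thbs1, thrombospondin 1, which links dying cells to αv integrin and Cd36. Cd36 itself had 1 mimic and 0 scramble reads, below the floor. Thbs1 had 6133 mimic and 12321 scramble reads and a log2 ratio of -1.01 (-1.05 to -0.96). That interval spanned the 2-fold limit, and the median of genes of its length was -0.086. The annexins that bind phosphatidylserine had the highest levels. Anxa5 had 306 mimic and 423 scramble RPKM and Anxa1 had 425 and 315.

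Of 24 other integrin chains, 14 had at least 20 reads, 2 were higher and 2 lower by 2-fold, with a median of 0.20. Itga1 and Itga6, α chains of collagen and laminin receptors, were lower at log2 ratios of -1.25 (-1.48 to -1.03) and -1.23 (-1.59 to -0.89). Itga1 had 233 mimic and 554 scramble reads and Itga6 had 100 and 235, beside medians of -0.23 and -0.17 in genes of their length. Itgb4, the β chain that pairs with α6, was higher at 1.32 (0.58 to 2.11), with 55 mimic and 22 scramble reads. The leukocyte chain Itgb2 was higher at 3.13 (1.64 to 5.08), with 35 and 4. The intervals of Itga6 and Itgb4 spanned the 2-fold limit. Itgb1 and Itga5, which form the fibronectin receptor, were the most read, at 176 mimic and 297 scramble RPKM for Itgb1 and 46.6 and 46.0 for Itga5. Their log2 ratios were -0.76 (-0.79 to -0.73) and 0.020 (-0.041 to 0.082).

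In the remaining pathway lists no gene reached 2-fold. Scramblases and flippases that set phosphatidylserine exposure had a median of -0.33 over 9 genes, 7 of them with a ratio below 0, beside 50.1% of all tested genes. The medians of genes of their length ran from -0.23 for Ano6 and Atp11a to 0.22 for Plscr1. The part of length was not tested. The highest RPKM in the scramble library were those of Tmem30a, the flippase chaperone, at 24.2 mimic and 31.2 scramble RPKM, and of the flippase Atp8b2 at 16.5 and 25.2. Genes for handling of engulfed lipid had a median of 0.19 over 13 genes, and the highest scramble levels were those of the nuclear receptor Rxra, at 40.1 mimic and 44.9 scramble RPKM, and the lysosomal cholesterol carrier Npc2, at 56.3 and 32.6. Enzymes that carboxylate the TAM ligands or process and shed the receptors had a median of -0.28 over 7 genes, and the highest scramble levels were those of the sheddase Adam10, at 24.3 mimic and 29.5 scramble RPKM, and the protease Furin, at 14.7 and 20.7.

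**Figure D5:**
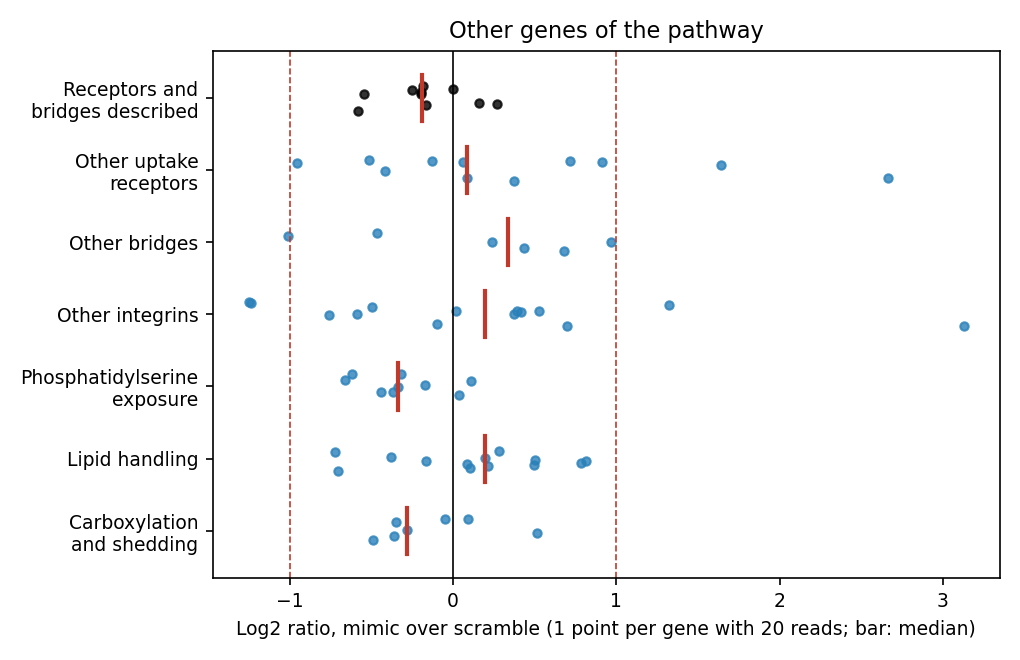
Log2 ratio of mimic to scramble (x axis) of each gene with at least 20 reads, by list, with a bar at the list's median and dashed lines at 2-fold. The 10 members lie between -0.58 and 0.27, and their median of -0.19 lies between those of the phosphatidylserine exposure list at -0.33 and the other uptake receptors at 0.087.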

How the data were processed

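Ago2 IP RNA of TM4 cells was sequenced after an Illumina TruSeq preparation, with 1 library per condition. Tables deposited by the authors hold raw counts of reads by gene symbol, not normalized. The submitters' processing notes name CASAVA 1.8.2, TopHat2 2.0.8b, HTSeq and build mm9. Annotation and strand setting are not given in the sources used here, so exonic overlap with a neighbour (634 bases of Itgav, 34 of Gas6, opposite strand in GENCODE M21) could not be resolved. Reads placed at several loci (39.8% of mimic and 35.6% of scramble entries) were not on genes. Depth was 18628310 and 18717225 reads, and the floor was 3 reads.

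Scaling between libraries used the TMM method (edgeR 4.0.16 under R 4.3.3). The quasi-likelihood fit of edgeR needs replicates that these data do not have, so a gene was called by a 2-fold ratio, with at least 20 reads over both libraries. Each log2 ratio carries a 95% interval, from the Clopper-Pearson limits on the share of a gene's reads found with the mimic. RPKM used the exon-union length in GENCODE M21 (GRCm38), matched by symbol or RefSeq synonym for 99.1% of the 12186 tested genes. No coordinate comes from the files. The ratio and interval code was tested on simulated data. Python 3.11.15, scipy 1.17.1 and the size factors of DESeq2 1.42.0 were also used. All 10 members were named, and from each pathway list the genes past 2-fold and the 2 with the highest scramble level. The members, lists and alternatives were chosen with earlier results of these data known. Some results of the lists are not reported here.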

Additional observations from a re-analysis of the deposited data

How the results depend on the processing

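Under DESeq2 size factors, total reads or upper-quartile scaling, all 30 recomputed log2 ratios of the 10 genes stayed within their main counting intervals. No member passed 2-fold under those scalings, with no count minimum, with at least 200 reads or after subtraction of the median of genes of the same length, and none passed 1.5-fold with TMM. The number below 0 beyond counting error was 7 with TMM and DESeq2 size factors, 6 with total reads or the upper quartile, and 5 after the subtraction. Length mattered most. After the subtraction Itgav reversed from -0.20 to 0.034, Gas6 moved from -0.58 to -0.79, past 1.5-fold, Scarb1 from -0.25 to -0.076, and the median of the members from -0.19 to -0.087. With the longest annotated transcript the share of Axl in the TAM receptors was 93.9% in the mimic and 92.0% in the scramble library, and that of Tyro3 5.62% and 7.53%. With raw reads Axl had 93.7% and 91.7%, and Tyro3 5.86% and 7.85%. No paired analysis was possible because each condition has 1 library. With 1 library per condition, the spread between cultures is unknown, and 34 to 38 reads limit what can be said of Mertk.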

Other observations

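Some list genes outside the naming rule were picked after their values were seen. Lgals3, galectin 3, a described ligand of Mertk, had 10192 mimic and 5199 scramble reads, a log2 ratio of 0.97 (0.92 to 1.02), beside a median of 0.22 in genes of its length. The cholesterol exporter Abca1, which is induced in cells that take up apoptotic bodies, had 1584 and 902 reads, a log2 ratio of 0.81 (0.69 to 0.93), beside a median of -0.23. Cd93, a transmembrane receptor of the C-type lectin kind, had 301 and 582 reads, a log2 ratio of -0.95 (-1.16 to -0.75), beside a median of -0.14. A rise in mRNA level and a rise in Ago2 association cannot be told apart for any of these genes or for the 10 members, because no library of RNA before the pull-down was analysed here.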
